A study of Mus musculus with 6 samples.

Results

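The lipogenic genes described here are 10 genes of fatty acid synthesis in mouse skeletal muscle, namely Srebf1, Acly, Me1, Acaca, Acacb, Fasn, Elovl5, Elovl6, Scd1 and Scd2. They were taken as every probe set, the group of array probes summarised into 1 value, whose single gene symbol in the platform's annotation is one of these names. All 10 genes were found, on 12 probe sets with a value on every array, among 19938 genes measured. The genes were chosen by their place in the pathway and by the TG and WT log2 values of these same arrays, in which Scd1 was higher and Srebf1 lower in transgenic muscle. The values that compare the groups for these 10 genes are therefore a description and not a test.

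Frozen skeletal muscle from 6 mice was profiled on Affymetrix MoGene arrays, with 3 arrays from transgenic mice (TG) and 3 from wild-type mice (WT), and the title of the series names SOCS-3, a suppressor of cytokine signalling, in muscle. The labels name a separate animal for each array. The labels do not say which muscle was taken, what strain, age or sex the mice had, what promoter drives the transgene or what it encodes. The median of each array lay between 5.98 and 6.04 on the log2 scale, and 17 of 17 muscle fibre markers were measured with a mean level of 13.39 to 13.40 in TG and 13.41 to 13.44 in WT. In bulk muscle, fewer cells of a type and less RNA per cell cannot be told apart.

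Fatty acid synthesis turns citrate from mitochondria into long-chain fatty acids in the cytosol. ATP citrate lyase releases acetyl-CoA, acetyl-CoA carboxylase makes malonyl-CoA, fatty acid synthase builds palmitate with NADPH from malic enzyme and other sources, and elongases and desaturases then lengthen the chain or add a double bond. SREBP-1, the product of Srebf1, and the liver X receptors (LXR) switch these genes on after feeding, mostly in liver and fat. Muscle makes little fat this way, and its malonyl-CoA serves mainly to restrain fatty acid entry into mitochondria.

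Of the 10 genes, Scd1 was higher and Srebf1 lower on every TG array than on every WT array, and the other 8 genes overlapped between the groups. Differences, always TG minus WT on the log2 scale, were above 0 for 6 of the 10 genes, as for 43.8% of all genes, and below 0 for 4, with a median of 0.027 against -0.016 over all genes. The 95% interval of the difference excluded 0 for 2 genes, Scd1 and Srebf1, and included it for the other 8. By non-overlap of the 3 TG and 3 WT values, 2 of 10 genes stood apart, where 12.3% of all genes did (4.52% higher and 7.76% lower in TG). No member passed an adjusted p of 0.05 over all genes (limma with Benjamini-Hochberg adjustment), a threshold that 1 gene, or 0.00502%, passed. At an unadjusted p under 0.05 the same fit marked 2 members and 6.75% of all genes (1.96% higher and 4.79% lower in TG). These shares describe genes whose values were known when they were chosen, and nothing is read from them.

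**Figure D1:**
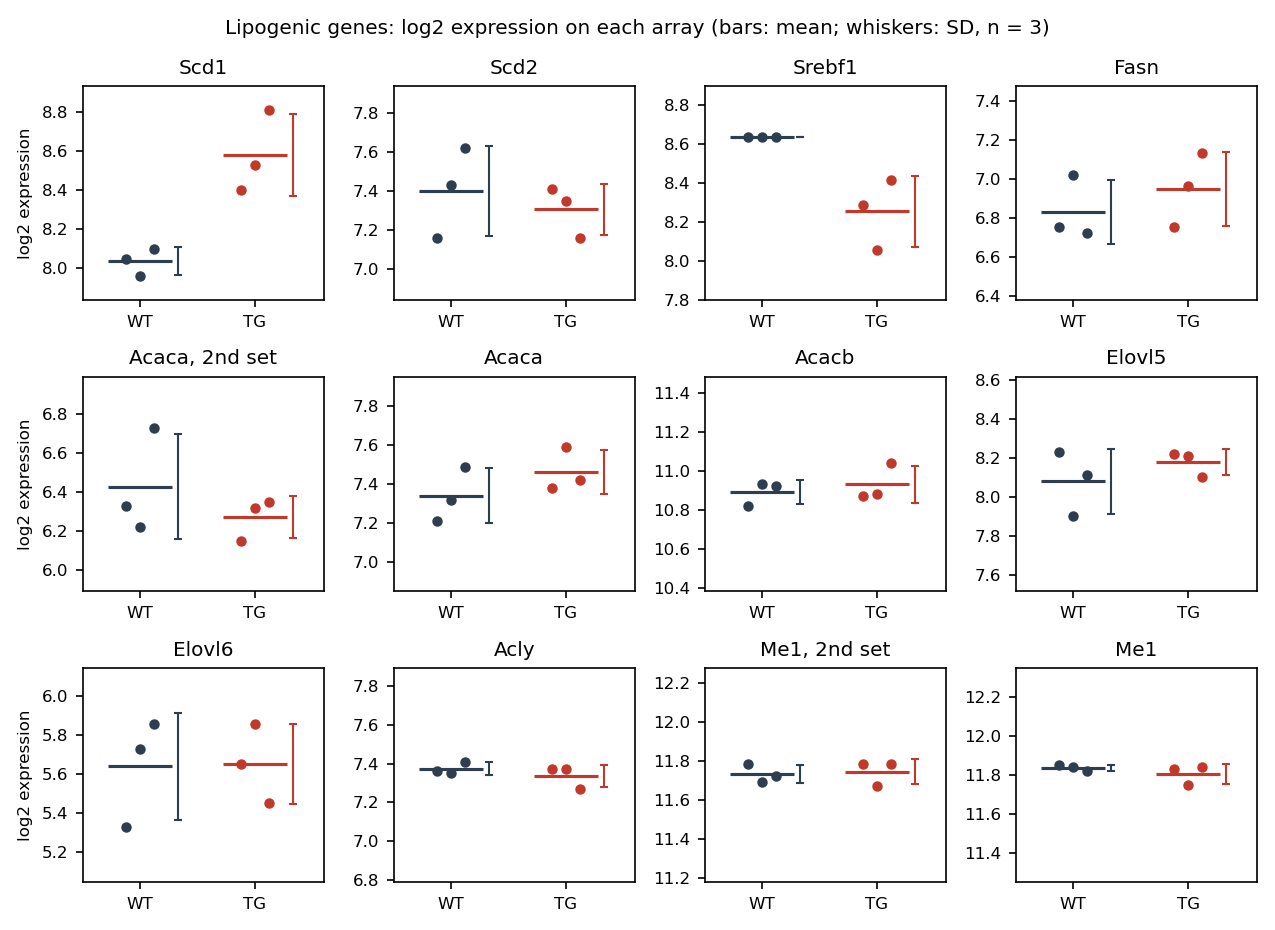
Log2 expression of the 12 probe sets of the 10 lipogenic genes on each array, in WT (dark) and TG (red), with horizontal bars for the mean and whiskers for the SD (n = 3 each). Every panel spans the same log2 range, so that spreads can be compared between panels while levels cannot; TG and WT points are apart for Scd1 (8.40 to 8.81 against 7.96 to 8.10) and Srebf1 (8.06 to 8.42 against 8.64 on each array).

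Srebf1 encodes the membrane-bound transcription factor whose cleaved form activates the genes of fatty acid synthesis. Its log2 expression was 8.29, 8.06 and 8.42 on TG arrays 1, 2 and 3, and 8.64 on each of the 3 WT arrays. All TG values lay below all WT values, with a gap of 0.22, and nearly all the spread was among the TG arrays. The TG mean was 8.26 ± 0.18 and the WT mean 8.64 ± 0.0019 (SD, n = 3 each). The difference was -0.38 (SE 0.10, 95% interval -0.61 to -0.16), or 1.30-fold lower in TG. It was the 180th lowest difference of 19938 genes, with 0.898% of genes lower. The array with the lowest value, TG array 2, moved the difference to -0.28 when left out. The probe set does not say which SREBP-1 transcript it reads, since its position in the gene was not determined here.

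Promoter windows of 300 bases, from 250 bases before to 50 after a transcription start, were matched in RefSeq (GRCm38.p6) for 8 of the 10 genes, in 11 windows. Scd1 and Scd2 were not matched. Of the 3 windows of Srebf1, 1 is printed beside that of Fasn, a classic target of SREBP-1, because these 2 share the longest run of letters among the Srebf1 and Fasn windows, TAGTAACCCCG. Most of that run belongs to the kind of element that LXR binds with its partner RXR in both promoters. Capitals mark the shared run and the inverted CCAAT box ATTGG, the site of the NF-Y factor that works beside SREBP, on either strand. The Srebf1 window lies at chr11:60210422-60210721 and the Fasn window at chr11:120824498-120824797, both on the minus strand.
Srebf1: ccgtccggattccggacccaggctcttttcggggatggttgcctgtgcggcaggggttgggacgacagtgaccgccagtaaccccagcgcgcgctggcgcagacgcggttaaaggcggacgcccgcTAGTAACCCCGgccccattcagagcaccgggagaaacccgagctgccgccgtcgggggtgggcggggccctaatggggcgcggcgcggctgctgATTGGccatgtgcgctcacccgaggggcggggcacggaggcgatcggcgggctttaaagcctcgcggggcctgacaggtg
Fasn: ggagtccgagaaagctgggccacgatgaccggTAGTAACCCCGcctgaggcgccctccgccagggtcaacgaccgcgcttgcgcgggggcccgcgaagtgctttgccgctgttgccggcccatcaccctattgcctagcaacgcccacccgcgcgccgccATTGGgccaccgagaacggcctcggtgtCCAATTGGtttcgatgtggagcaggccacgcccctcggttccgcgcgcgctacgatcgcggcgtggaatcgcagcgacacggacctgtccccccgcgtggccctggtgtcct

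The shared run of 11 letters starts 124 bases before the start site in the Srebf1 window and 218 bases before it in the Fasn window. On both strands, it was found in 5 of 32851 windows, or 0.0152%, and since it was taken from these windows its presence there is no finding. The inverted CCAAT box was found in 7 of the 11 windows, of 6 genes, against 37.4% of all windows, and the last 2 matches in the Fasn window, on opposite strands, overlap each other. The E-box CACGTG was found in 1 window, that of Elovl5, against 7.15% of all windows. The core of the sterol regulatory element TCACNCCAC (1.24% of windows) and the STAT site TTCNNNGAA (8.30%), searched on both strands, had 0 matches in the 11 windows, which says only that these letters are not there.

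Acly encodes ATP citrate lyase, the source of cytosolic acetyl-CoA. It was measured at 7.37, 7.37 and 7.27 on the TG arrays and 7.36, 7.35 and 7.41 on the WT arrays, so the groups overlapped. The difference was -0.04 (SE 0.06, 95% interval -0.19 to 0.11). Its within-group SD of 0.04 was smaller than that of most genes, as 7.15% of genes had a smaller one.

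Me1 encodes the cytosolic malic enzyme, which makes NADPH for fatty acid synthesis. The brighter of its probe sets read 11.83, 11.75 and 11.84 in TG and 11.85, 11.84 and 11.82 in WT, a difference of -0.03 (95% interval -0.18 to 0.12). The other probe set read 11.78, 11.67 and 11.78 in TG and 11.78, 11.69 and 11.72 in WT, a difference of 0.01 (95% interval -0.15 to 0.17). Neither separated the groups, and TG array 2 was the lowest array on both.

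Acaca and Acacb encode the acetyl-CoA carboxylases, the first serving fatty acid synthesis in the cytosol and the second making malonyl-CoA at the mitochondrial surface, where it inhibits carnitine palmitoyltransferase. Acacb, the form typical of muscle, was measured at 10.87, 10.88 and 11.04 in TG and 10.82, 10.93 and 10.92 in WT. The groups overlapped, with a difference of 0.04 (SE 0.08, 95% interval -0.14 to 0.22).

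Acaca had a pair of probe sets that differed in sign. The brighter one read 7.38, 7.59 and 7.42 in TG and 7.21, 7.32 and 7.49 in WT, a difference of 0.12 (95% interval -0.10 to 0.35). The dimmer one read 6.15, 6.32 and 6.35 in TG and 6.33, 6.22 and 6.73 in WT, a difference of -0.15 (95% interval -0.47 to 0.17). Both intervals include 0, so no direction can be given for Acaca. WT array 3 was the highest WT array on each.

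Fasn encodes fatty acid synthase, the multi-enzyme protein that builds palmitate. It was measured at 6.75, 6.96 and 7.13 in TG and 6.75, 7.02 and 6.72 in WT. TG array 3 was the highest and WT array 3 the lowest, and TG array 1 lay level with WT array 1. The difference was 0.12 (SE 0.12, 95% interval -0.17 to 0.40), and it was 0.02 without TG array 3.

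Elovl6 encodes the elongase that extends palmitate to stearate, the substrate of the stearoyl-CoA desaturases, and Elovl5 encodes an elongase of polyunsaturated fatty acids. Elovl6 was measured at 5.65, 5.86 and 5.45 in TG and 5.33, 5.73 and 5.86 in WT, a difference of 0.01 (SE 0.16, 95% interval -0.35 to 0.38). Its within-group SD of 0.24 was the widest of the 10 genes, and 92.9% of all genes had a smaller one. Elovl5 was measured at 8.22, 8.21 and 8.10 in TG and 8.23, 7.90 and 8.11 in WT, a difference of 0.10 (SE 0.10, 95% interval -0.13 to 0.32). WT arrays 1 and 2 were its highest and lowest arrays, so the TG values lay inside the WT range.

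Scd1 and Scd2 encode stearoyl-CoA desaturases, which place a double bond in stearate and palmitate and so make oleate and palmitoleate. Scd1 was measured at 8.40, 8.53 and 8.81 on TG arrays 1, 2 and 3 and at 8.05, 7.96 and 8.10 on WT arrays 1, 2 and 3. The lowest TG array lay 0.29 above the highest WT array, and the TG arrays spread over 0.41 against 0.15 for WT. The TG mean was 8.58 ± 0.21 and the WT mean 8.04 ± 0.07 (SD, n = 3 each). The difference was 0.54 (SE 0.11, 95% interval 0.28 to 0.80), or 1.46-fold higher in TG. It was the 27th highest difference of 19938 genes, with 0.130% of genes higher. It ranged from 0.43 without TG array 3 to 0.63 without TG array 1.

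Scd2, the isoform known from brain, was measured at 7.41, 7.35 and 7.16 in TG and 7.16, 7.43 and 7.62 in WT. WT array 3 was highest, and TG array 3 and WT array 1 were lowest, so the groups overlapped. The difference was -0.09 (SE 0.13, 95% interval -0.39 to 0.20). In the RefSeq gene order Scd3, Scd2, Scd4 and Scd1 are neighbouring protein-coding genes. Scd3 and Scd4, named for that position, differed by -0.11 and 0.01, both with overlapping groups. How far probes of these near copies read each other's transcripts was not tested.

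**Figure D2:**
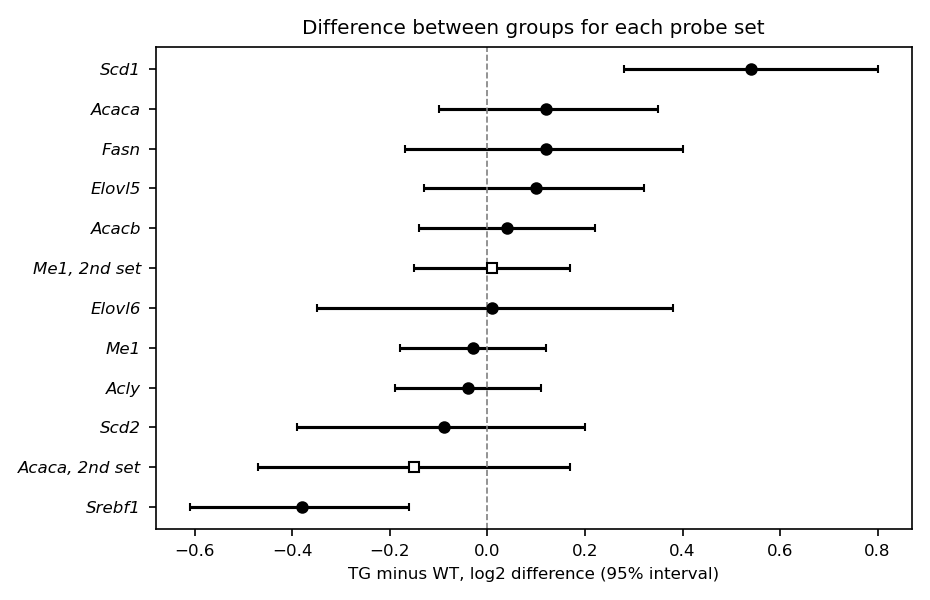
Difference between TG and WT (log2, points) with its 95% interval from the limma fit over all genes or, for the open squares, over all probe sets; open squares are the dimmer probe sets of Acaca and Me1. The intervals of Scd1 (0.28 to 0.80) and Srebf1 (-0.61 to -0.16) lie on opposite sides of 0, and the other 10 cross it.

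The 10 genes did not share an order of arrays. TG array 3 was the highest array for Scd1, Fasn and Acacb and the lowest for Acly. WT array 1 was the lowest for 4 genes (Scd2, Acaca, Acacb and Elovl6) and the highest for 3 (Srebf1, Elovl5 and Me1). For Srebf1 that place is close to a tie, since its WT values lay within 0.0038 of each other. Among the 3 TG arrays, Scd1 and Fasn were both lowest on array 1 and highest on array 3, while Srebf1 was lowest on array 2 and highest on array 3. The mean log2 level over the 10 genes was 8.22 to 8.26 in TG and 8.14 to 8.27 in WT, so the list as a whole did not separate the groups.

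Profiles were also compared by the root mean square difference of log2 values centred on each gene's mean over the 6 arrays, where 0 means the same profile. The gene nearest to Scd1 was Cyct, a testis cytochrome c gene, at 0.089, followed by Olfr952 (0.109), Olfr1461 (0.114), 4430402I18Rik (0.116) and Scyl2 (0.120). The gene nearest to Srebf1 was Slc10a4 at 0.027, followed by Ano4 (0.034), Bnc1 (0.057), Lair1 (0.058) and Serpina12 (0.059). Of these 10 genes, 9 had values under 6 on every array, and Scyl2, at 8.46 to 9.22, was the exception. Whether such low values are above background was not assessed, since no detection value was used here. No lipogenic gene was among the neighbours. Fasn stood nearest to Scd1 within the set, at 0.255 and place 1516 of all genes, and Me1 nearest to Srebf1, at 0.193 and place 3848. Me1 spanned only 0.10 over the arrays, against 0.58 for Srebf1, so its place cannot be read as a shared profile. Scd1 and Srebf1 were 0.478 apart.

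Around these genes, 6 lists of related steps held 111 genes, of which 100 were measured and 11 were not analysed here. None of the 100 passed an adjusted p of 0.05 over all genes (limma), in either direction, and 4 had an unadjusted p under 0.05, 2 higher and 2 lower. Values were above 0 for 50 genes and below 0 for 50, with a median difference of 0.002 against -0.016 over all genes. The groups did not overlap for 10 of the 100, where 12.3% of all genes did not. Of these, 8 were higher and 2 lower in TG, while over all genes 4.52% were higher and 7.76% lower. The genes named from each list are those with the smallest p.

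The list of regulators held 19 measured genes, 8 above and 11 below 0, with a median of -0.004 and 0 at an unadjusted p under 0.05. Nfyb, a subunit of NF-Y, differed by 0.19 (SE 0.08; limma, adjusted p = 0.739). Scap, the escort protein that carries SREBP to the Golgi, differed by -0.11, and the retinoid receptors Rxra and Rxrg, partners of LXR, by -0.10 and -0.09. All 4 differences are smaller in size than that of Srebf1, but Srebf1 was chosen with its low TG values known, so nothing is read from this. Srebf2, the sterol-regulating relative of Srebf1, had means of 7.79 in both groups. Nr1h3, which encodes LXR alpha, differed by -0.03, Insig1, an SREBP target that retains SREBP in the endoplasmic reticulum, by -0.07, and Mlxipl, which encodes the carbohydrate-responsive factor ChREBP, by 0.03. These 4 were added for their role and not by their p.

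Among 17 other desaturases and elongases, 9 values were above and 8 below 0, with a median of 0.005. Elovl7, an elongase, was measured at 4.62, 4.51 and 4.60 in TG and 4.75, 4.71 and 4.88 in WT, a difference of -0.21 (SE 0.07; limma, adjusted p = 0.719). Elovl4, which makes very long chains, differed by -0.20, and Hacd1 and Hacd2, dehydratases of the elongation cycle, by 0.15 and 0.18. Elovl7 was the single gene of the list with an unadjusted p under 0.05. The groups did not overlap for 2 of the 17 genes, against 12.3% of all genes. These were Elovl7, lower in TG, and Elovl1, named for this, higher in TG (7.64 to 7.75 against 7.58 to 7.61). Elovl7 and Elovl4 (4.45 to 4.96) had low values, and whether these are above background was not assessed.

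For the supply of citrate, acetyl-CoA and NADPH, 7 of 15 values were above and 8 below 0, with a median of -0.031. Tkt, the transketolase of the pentose phosphate pathway, was measured at 7.00, 6.99 and 6.97 in TG and 6.76, 6.72 and 6.72 in WT. Its difference of 0.25 (SE 0.06; limma, adjusted p = 0.660) was the one value of the list with an unadjusted p under 0.05, and its SD within each group was 0.02. Mdh1, the cytosolic malate dehydrogenase, differed by 0.10, Slc25a1, the mitochondrial citrate carrier, by -0.21, and Taldo1, the transaldolase, by -0.11.

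The 7 measured genes of malonyl-CoA control had 5 values above and 2 below 0, with a median of 0.039 and 0 at an unadjusted p under 0.05. Cpt1a, the liver form of the carnitine palmitoyltransferase that malonyl-CoA inhibits, differed by 0.11 (SE 0.07; limma, adjusted p = 0.802) with groups that did not overlap. The muscle form, Cpt1b, was not analysed here. Oxsm and Mcat, of mitochondrial fatty acid synthesis, differed by 0.07 and 0.04, and Mid1ip1, an activator of acetyl-CoA carboxylase, by 0.08.

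Cholesterol synthesis and other SREBP-2 targets had 8 of 18 values above and 10 below 0, with a median of -0.022. Stard4, a sterol transfer protein, was measured at 6.56, 6.47 and 6.49 in TG and 6.80, 6.70 and 6.65 in WT, a difference of -0.21 (SE 0.07; limma, adjusted p = 0.710). It was the single gene of the list with an unadjusted p under 0.05. Mvd and Fdft1, enzymes of the mevalonate and squalene steps, differed by 0.24 and 0.18, and Ebp, a sterol isomerase, by -0.09.

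Acyl-CoA synthetases and glycerolipid synthesis genes had 13 of 24 values above and 11 below 0, with a median of 0.005. Chpt1, the choline phosphotransferase that makes phosphatidylcholine, was measured at 11.32, 11.17 and 11.08 in TG and 10.73, 10.64 and 10.71 in WT. Its difference of 0.50 (SE 0.08; limma, adjusted p = 0.455) was the largest of the 100 genes and passed when limma's variance was allowed to follow intensity, the single pathway gene to do so. Chpt1 lies on chromosome 10, as does Scyl2. The share of other genes on that chromosome was not counted, so nothing is read from their position. The acyltransferases Agpat3 and Gpat3 differed by 0.13 and 0.17, and Acsl6, an acyl-CoA synthetase, by 0.12.

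**Figure D3:**
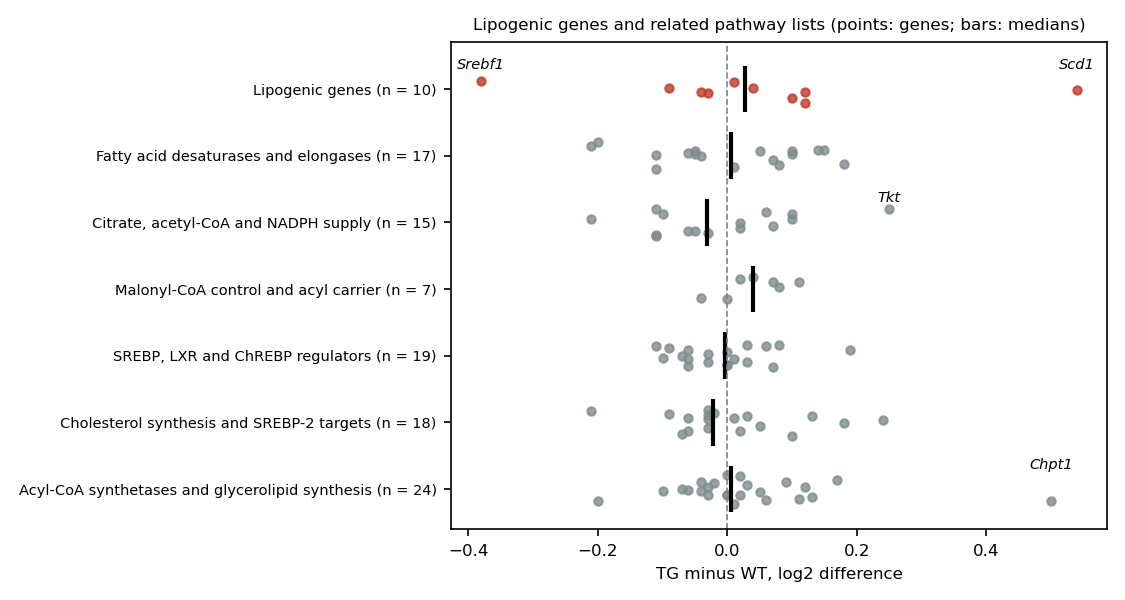
Log2 difference between TG and WT for the 10 lipogenic genes (red) and the genes of 6 related lists (grey), one point per gene with a small vertical offset, and black bars for list medians. Scd1 (0.54), Chpt1 (0.50) and Srebf1 (-0.38) lie outside the range of -0.21 to 0.25 that holds all the other genes drawn. Scd1 and Srebf1 were chosen with their values known, so nothing is read from their place.

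Several of these genes are abundant in fat and liver, so markers of cell types that a muscle sample can hold were read on the same arrays. Adipocyte markers had 11 of 15 measured values above 0, with a median difference of 0.059. Their mean log2 level was 7.37, 7.47 and 7.41 on TG arrays 1, 2 and 3, against 7.31 to 7.34 in WT, and their summed linear signal was 19399 to 20190 in TG and 17419 to 19879 in WT. The mean level was thus higher on each TG array, but it includes Adipoq, which had the largest difference of the list (0.64). The groups did not overlap for 2 of the 15 genes, Adipoq and Retn, against 12.3% of all genes. The mean therefore does not describe each gene of the list. The summed signal overlapped, but Car3, a carbonic anhydrase that muscle fibres also make in quantity, held 70.7% to 74.5% of it. Without Car3, left out after the values were seen, the sum was 5248, 5540 and 5334 on TG arrays 1, 2 and 3 and 5148, 5095 and 5070 on the WT arrays, so it too was higher on each TG array. The brightest genes left in that sum were Fabp4 and Pnpla2, with differences of 0.09 and 0.06 and groups that overlapped for each. Adipoq, the adiponectin gene, was measured at 5.99, 5.74 and 6.04 in TG and 5.25, 5.34 and 5.28 in WT, a difference of 0.64 (SE 0.09; limma, adjusted p = 0.299). Plin1, which coats lipid droplets, and Lep, the leptin gene, differed by 0.21 and 0.26 with overlapping groups, and Fabp4, the fatty acid binding protein of fat cells, named for its role, by 0.09. The 4 markers below 0 were Cidea (-0.25), Cebpa (-0.07), Ucp1 (-0.07) and Pparg (-0.03). Lep was measured at only 4.10 to 4.70, and Adipoq in WT at only 5.25 to 5.34. Whether such low values are above background was not assessed. The adipocyte mean was highest on TG array 2 and Scd1 on TG array 3. The part of fat cells in the Scd1 value was not tested.

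Hepatocyte markers varied more than any other marker list. All 16 measured values were below 0, with a median of -0.424, but the groups overlapped for each of them. Their mean log2 level was 6.25, 7.44 and 5.45 on TG arrays 1, 2 and 3 and 6.48, 7.06 and 7.06 on the WT arrays, and their summed signal was 871 to 4424 in TG and 1986 to 3373 in WT. Apoa1, Tat and G6pc differed by -0.78, -0.47 and -0.37. TG array 2, with the highest hepatocyte level, had the lowest Srebf1 value, and TG array 3, with the lowest hepatocyte level, had the highest Scd1 value. Among the TG arrays Srebf1 fell as the hepatocyte level rose, with array 1 in between (8.29, hepatocyte level 6.25). The WT arrays did not follow that order. Srebf1 was 8.64 on each of them, where the hepatocyte level ran from 6.48 to 7.06. Scd1 was lower on TG array 1 (8.40) than on TG array 3, and lower still on the WT arrays (7.96 to 8.10). It thus fell as the hepatocyte level rose over these groups of arrays. TG array 2 departed from that fall, with Scd1 at 8.53 and a hepatocyte level of 7.44. The part of liver transcripts in either value was not tested.

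Macrophage markers had 11 of 13 values above 0, with a median of 0.082, a mean level of 6.48 to 6.70 in TG and 6.33 to 6.58 in WT, and a summed signal of 1597 to 1957 and 1384 to 1899. Itgam, Tyrobp and Ccr2 differed by 0.57, 0.26 and 0.56. Bone and osteoclast markers had 9 of 13 values above 0, with a median of 0.067, a mean level of 6.12 to 6.70 in TG and 6.06 to 6.27 in WT, and a summed signal of 2996 to 4955 and 3364 to 3966. Ctsk, Acp5 and Ocstamp differed by 0.57, 0.69 and -0.20, and TG array 1 had the highest mean of this list. Without TG array 1 the Scd1 difference was 0.63 and that of Srebf1 -0.40. The part of macrophage, bone or osteoclast transcripts in either value was not tested. Of the fibre markers, 3 of 17 were above 0, with a median of -0.012, a summed signal of 250914 to 258682 in TG and 256043 to 258699 in WT, and Myh2, Myh1 and Tnni2 at -0.30, 0.06 and -0.05. No gene of these 5 lists passed over all genes (limma). An unadjusted p under 0.05 was reached by 7 of 74 measured markers, 6 higher and 1 lower in TG, against 1.96% higher and 4.79% lower over all genes. They were 3 of 13 macrophage markers, all higher, 3 of 13 bone and osteoclast markers, 2 higher and 1 lower, and 1 adipocyte marker, Adipoq. No marker was at 0, since every probe set of an array has a value.

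**Figure D4:**
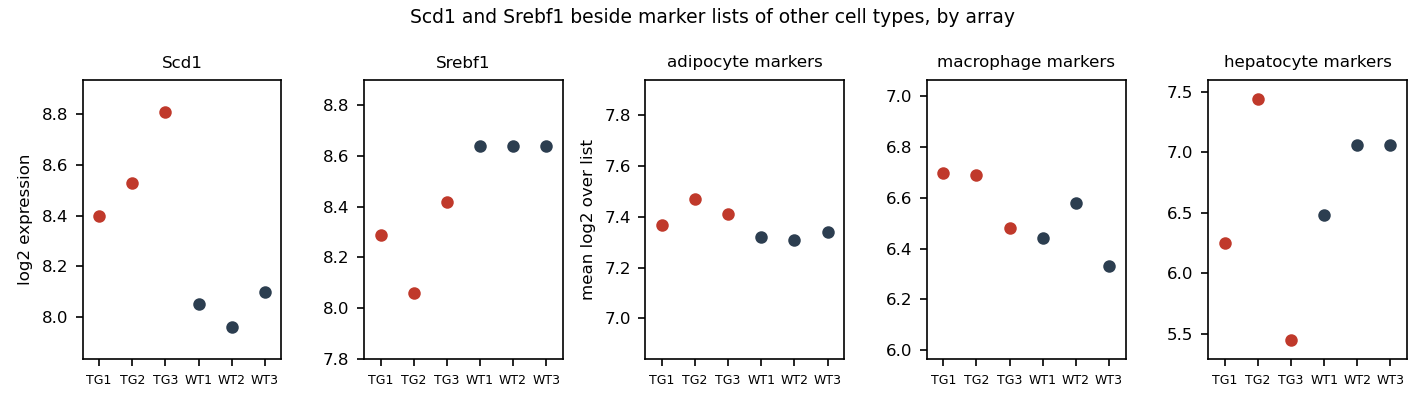
Log2 expression of Scd1 and Srebf1 and the mean log2 level of adipocyte, macrophage and hepatocyte marker lists on each TG (red) and WT (dark) array; the hepatocyte panel spans a wider log2 range than the others. TG array 3 had the highest Scd1 value (8.81) and the lowest hepatocyte level (5.45), and TG array 2 the lowest Srebf1 value (8.06) and the highest hepatocyte level (7.44). Srebf1 fell with rising hepatocyte level among the TG arrays but was 8.64 on each WT array, at hepatocyte levels of 6.48 to 7.06. Scd1 fell with rising hepatocyte level from TG array 3 to TG array 1 (8.40) to the WT arrays (7.96 to 8.10). TG array 2 (8.53) departed from that fall.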

How the data were processed

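Total RNA from muscle of 6 mice carried a biotin label on MoGene arrays, per the labels. The authors deposited log2 values for 35557 probe sets in 1 table. The log2 scale was read from their range, 1.41 to 15.1. How the authors summarised and normalised them is not stated in the labels. Medians of arrays lay within 0.0571 of each other, so the deposited values were used unchanged and unfiltered. Per the platform annotation, 21789 probe sets had 1 gene symbol, 1621 several and 12147 none, and the last 2 kinds were left out. A gene was represented by its brightest probe set, which gave 19938 genes.

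TG and WT were compared with limma 3.58.1 in R 4.3.3 (lmFit and eBayes, two-sided, Benjamini-Hochberg over all genes, threshold 0.05). The steps were also run on simulated data. The shifts put into those data were larger than any difference of the 10 genes, so that run says nothing about differences of this size. Replicates are numbered in deposit order and pair no animals. The 10 genes and all lists were chosen with earlier results of these data known. Named genes are the 10 genes, the 4 of smallest p in each pathway list, the 3 in each marker list and the 5 nearest profiles. Exceptions are stated in the text. Alternatives were a variance that follows intensity, robust moderation, weights per array, a level filter, other uses of probe sets, other normalizations, another threshold and each array left out. Figures were drawn with matplotlib 3.10.9.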

Additional observations from a re-analysis of the deposited data

How the results depend on the processing

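No paired analysis was possible because the labels give no number that TG and WT animals share. Over 12 alternatives, 5 of the 10 genes kept the sign of their difference (Scd1, Srebf1, Fasn, Elovl5 and Acly). Scd1 lay between 0.43 and 0.63 and Srebf1 between -0.46 and -0.28. Fasn lay between 0.02 and 0.21, Elovl5 between 0.01 and 0.17. The sign changed for Scd2, Acacb and Elovl6 when 1 array was left out (up to 0.02, down to -0.02 and down to -0.14), and for Acaca and Me1 with other probe sets (-0.15 and 0.01). The median over the 10 genes, 0.027 as reported, lay between -0.008 and 0.057. Each of these values was within 0.050 of the reported one, the SD between replicates of the median over the 10 genes. No lipogenic gene was called under any of 15 alternatives. The count of called genes, 1 as reported, was 7 with an intensity trend (2 higher, 5 lower), 0 with robust moderation, 2 among genes at or above the median level, 0 with a common array median, 31 at an unadjusted p under 0.01 with a 1.5-fold change (9 higher, 22 lower) and 0 without each array in turn. The count of called pathway genes, 0 as reported, was 1 with an intensity trend. The cause of these changes was not tested. With 3 arrays per group the interval of the 8 overlapping genes reached from -0.39 to 0.40. Signal over background could not be assessed.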
